A study of Mus musculus with 27 samples.

Results

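The 46 genes described here encode the machinery that copies DNA and the regulators that start S phase. They were taken by name from a list, and a gene was kept if its row of the count table held 10 or more counts summed over the 27 libraries. All 46 passed, out of 50559 genes in the table, of which 22415 passed the same limit. RNA came from mouse thyroid gland organoids (mTGOs), 3-dimensional structures grown in Matrigel from dissociated thyroid glands of female C57BL/6 mice aged 8 to 12 weeks, with no genetic change named in the labels. All cultures received EGF, FGF2, the ROCK inhibitor Y27632 and B27. Non-irradiated organoids were collected at day 5 (D5), day 7 (D7) and day 11 (D11), and organoids given 2, 4 or 7 Gy of photons after 5 days of growth were collected at D7 and D11, that is 2 and 6 days after irradiation. Each of the 9 groups held 3 libraries. The labels number the mice 1 to 3, the design text speaks of 4 mice, and the column names carry 3 culture identifiers (mTG11, mTG12 and mTG14) that recur in every group. Values of 3 libraries are given below in the order mTG11, mTG12, mTG14.

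Before each S phase, the origin recognition complex, Cdc6 and Cdt1 load the Mcm2-7 helicase at origins of replication. In S phase Mcm10, Cdc45 and the GINS complex activate this helicase, primase and polymerase α start each strand, and the clamp Pcna, placed by the Rfc complex, holds polymerases δ and ε on DNA. Many of these genes are transcribed at the G1/S transition under E2F factors, so their mRNA is widely used as a marker of cycling cells. In bulk RNA, fewer cells of a type and less RNA per cell cannot be told apart.

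The smallest library held 2528866 counts, the largest 5723150 and the median one 3758142, so that 3 counts, taken as the smallest detectable amount, stood for 0.524 to 1.19 CPM (counts divided by the library total and scaled to 1000000) depending on the library. Smart3SEQ counts 3′ ends, and levels are therefore compared within a gene and not between genes. Summed over all libraries, the 46 genes held between 253 counts (Orc1) and 10684 counts (Rfc1). Values are normalized CPM, the deposited counts divided by the library total and its TMM scaling factor. A gene is called changed at an adjusted p under 0.05 in edgeR's quasi-likelihood test, adjusted by Benjamini-Hochberg over all genes of a fit. The labelled tissue was checked against its markers. Among the thyroid follicular markers, Slc5a5, Tshr, Pax8 and Hhex had means of at most 0.270 CPM over the 27 libraries and Tg 2.68 CPM. Nkx2-1 was at 12.6 CPM, Foxe1 at 29.8 CPM, Duox2 at 27.9 CPM and Duoxa2, the most abundant of them, at 60.7 CPM. The keratins Krt5 and Krt14 had means of 4018 and 3335 CPM.

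Summed over the 46 genes, the level was highest at D5 and lowest at D11 in non-irradiated organoids, and after 7 Gy it was lower than without irradiation at D7 and higher at D11. The sum was 1942 ± 49.3 CPM (SD, n = 3) at D5, 1273 ± 112 CPM (SD, n = 3) at D7 and 696 ± 1.57 CPM (SD, n = 3) at D11. After 7 Gy it was 1009 ± 69.5 CPM (SD, n = 3) at D7 and 1004 ± 18.5 CPM (SD, n = 3) at D11. The sum at D11 was thus 54.6% of that at D7 without irradiation and 99.5% of it at 7 Gy. The lower doses lay nearer to the non-irradiated groups, with 1364 ± 193 CPM (SD, n = 3) at D7 and 721 ± 34.8 CPM (SD, n = 3) at D11 after 2 Gy, and 1300.0 ± 89.3 CPM (SD, n = 3) and 813 ± 14.4 CPM (SD, n = 3) after 4 Gy. The widest spread was that of 2 Gy at D7, where the libraries held 1355, 1561 and 1175 CPM. Sums are carried by the more abundant genes and are given as a description, with no test. Of the 46 genes, 41 had their highest group mean at D5, the exceptions being Gins2, Gins4, Pold1, Pold3 and E2f1.

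**Figure D1:**
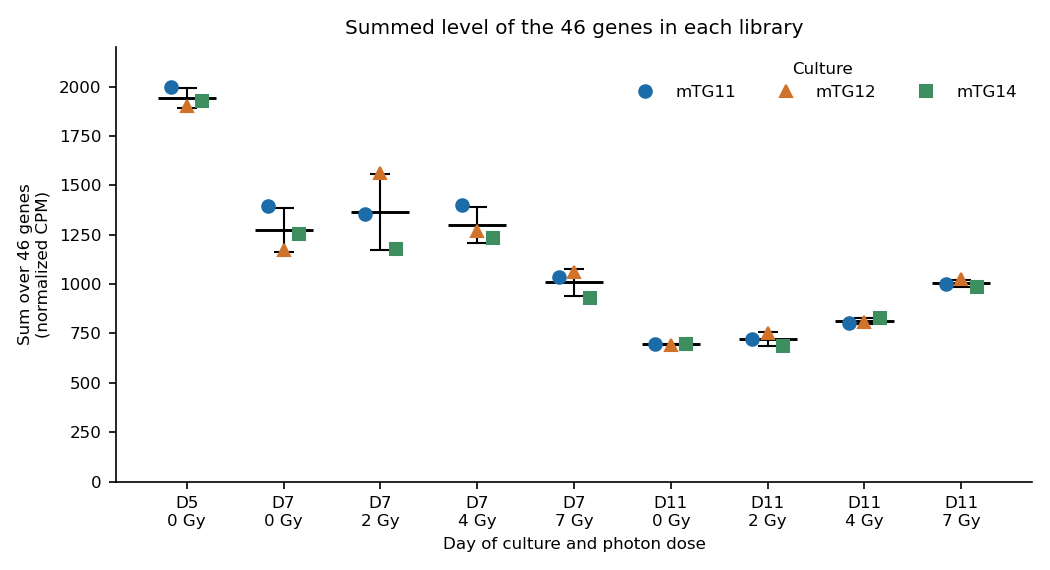
Sum of the normalized CPM of the 46 genes in each of the 27 libraries (y axis) by day and dose (x axis). Symbols are the 3 cultures, bars the group mean and whiskers the SD of 3 libraries. The group means fall from 1942 CPM at D5 to 696 CPM at D11 without irradiation, and the 2 groups given 7 Gy stand at 1009 and 1004 CPM.

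**Figure D2:**
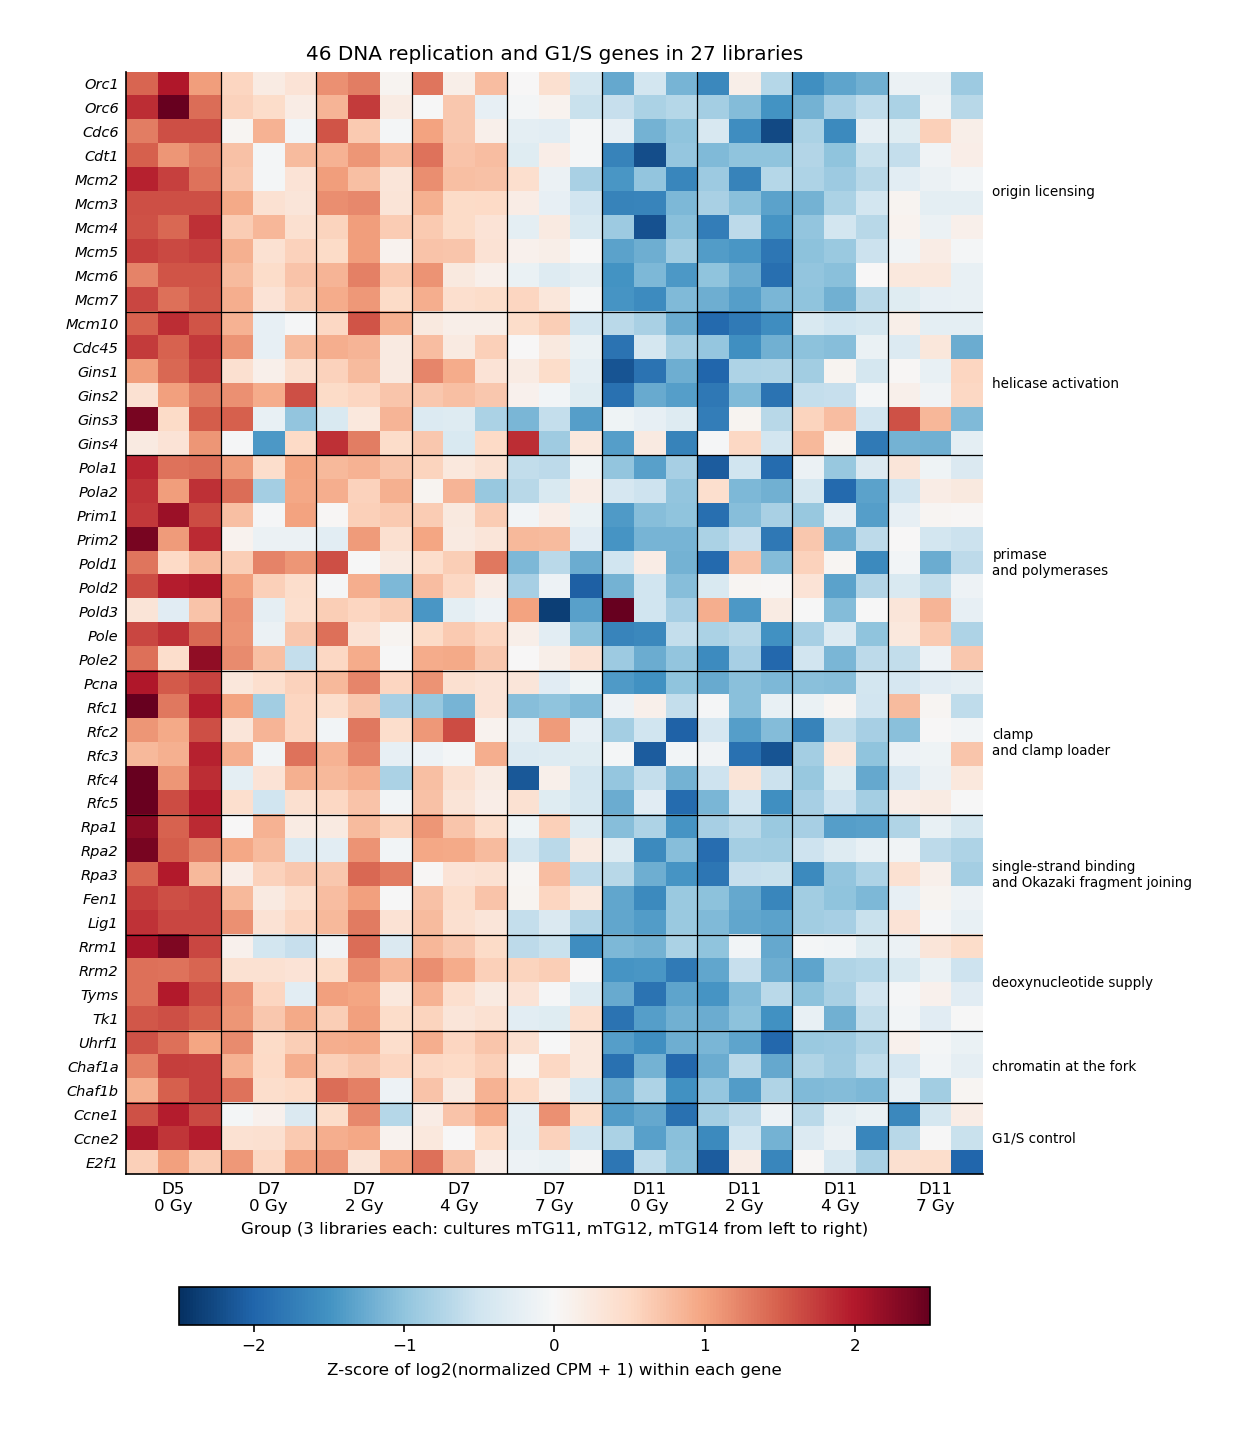
Z-scores, within each gene, of log2(normalized CPM + 1) for the 46 genes (rows, by role) in 27 libraries (columns, 3 per group in the order mTG11, mTG12, mTG14). Most rows are red at D5, pale red at D7 up to 4 Gy, near white at 7 Gy on both days and blue at D11 from 0 to 4 Gy. Pold3, Gins3 and Gins4 do not follow this order.

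The promoters of these genes were searched for E2F motifs as a description, and a link to the changes in level was not tested. Windows of 300 bases, from 250 before to 50 after the transcription start, were available from RefSeq (build GRCm38.p6) for 38 of the 46 genes, and not for Rfc2, Ccne2, Gins4, Gins2, Gins1, Pole, Mcm4 and Prim2. The 4 octamers TTTCCCGC, TTTGGCGC, TTTCGCGC and TTTGCCGC, variants of the E2F binding motif, were searched on both strands. At least 1 was found in 15 of the 38 genes (39.5%), against 2.26% of all 32851 windows and 2.6% of the 27025 genes with a window. TTTCCCGC occurred in 7 of the 38, TTTGGCGC in 6, TTTCGCGC in 7 and TTTGCCGC in 0. Some matches overlap, since the end of one octamer can be the start of another on the other strand. Of 21 genes of mitosis with a window, 1 held a match.

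The following windows lie upstream of the start, 5′ to 3′ on the strand of the gene, with the octamers in capitals. They belong to Mcm5 at chr8:75109332-75109391 (plus strand, 177 to 118 bases before the start), Mcm6 at chr1:128359740-128359820 (minus strand, 115 to 35 bases before the start), Mcm7 at chr5:138172015-138172074 (minus strand, 191 to 132 bases before the start), Uhrf1 at chr17:56304102-56304161 (plus strand, 211 to 152 bases before the start), Pola1 at chrX:93632260-93632319 (minus strand, 164 to 105 bases before the start) and Gins3 at chr8:95633492-95633551 (plus strand, 67 to 8 bases before the start). Mcm5, Mcm6, Mcm7 and Uhrf1 were higher 6 days after 7 Gy, Pola1 was lower 2 days after it, and Gins3 passed the test in none of the comparisons described below with all libraries in.
Mcm5: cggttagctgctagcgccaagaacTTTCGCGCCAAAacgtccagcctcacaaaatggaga
Mcm6: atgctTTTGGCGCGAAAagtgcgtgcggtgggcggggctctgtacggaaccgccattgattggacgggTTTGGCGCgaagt
Mcm7: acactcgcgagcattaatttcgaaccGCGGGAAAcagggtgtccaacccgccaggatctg
Uhrf1: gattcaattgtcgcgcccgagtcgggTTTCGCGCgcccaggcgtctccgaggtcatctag
Pola1: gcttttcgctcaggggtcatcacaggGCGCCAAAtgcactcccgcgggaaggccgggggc
Gins3: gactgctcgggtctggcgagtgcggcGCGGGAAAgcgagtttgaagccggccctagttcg
In Mcm5, and in the upstream pair of Mcm6, 2 matches overlap and form 1 run of capitals. A match is a description of these letters and not a measured binding site. Among the 15 genes with a match, 3 were called lower after 7 Gy at D7 (3.75% of all genes). At D11, 6 were called higher (1.06% of all genes). Among the 23 without a match these counts were 1 and 6. The median log2 fold change after 7 Gy at D11 was 0.73 with a match and 0.49 without. Without irradiation, 7 of the 15 and 17 of the 23 were called lower from D5 to D7 (9.62% of all genes). From D5 to D11, 13 of the 15 and 23 of the 23 were called lower (20.1% of all genes). Whether genes with and without a match differed was not tested.

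The first question was how these genes changed while the organoids grew without irradiation. Between D5 and D11, 43 of the 46 genes fell and 0 rose, and their median log2 fold change was -1.64, against 0.06 over all 18442 genes of the fit. Over all genes, 20.1% were called lower. The 3 genes that were not called were Gins3, Gins4 and Pold3. For 45 of the 46 genes every D11 library lay below every D5 library, as was so for 25.7% of all genes tested. From D5 to D7, 28 of the 46 fell (9.62% of all genes) with a median of -0.61, and from D7 to D11, 36 fell (11.7% of all genes) with a median of -1.05. The 2 intervals share the D7 libraries and 23 genes fell in both. Without TMM factors the median of all genes moved by over 0.1, from 0.04 to -0.11 between D5 and D7, and 35 of the 46 genes were then called lower (14.9% of all genes) with a median of -0.76, and from D5 to D11 45 (24.9% of all genes) with a median of -1.79.

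Among the 10 genes of origin licensing, which mark and load origins before S phase, all 10 fell between D5 and D11. Mcm5, a subunit of the Mcm2-7 helicase (GRCm39 chromosome 8, 75836140 to 75856231, plus strand), was at 87.6, 83.4 and 86.2 CPM at D5, 49.7, 35.5 and 40.4 CPM at D7 and 10.6, 11.5 and 14.9 CPM at D11. The 3 days did not overlap, and D11 lay 6.91-fold below D5 (log2 fold change -2.79, SE 0.15, edgeR adjusted p = 9.11e-08). Mcm3, another subunit, went from 97.9, 97.5 and 97.3 CPM at D5 to 70.2, 53.5 and 51.4 CPM at D7 and 19.1, 19.2 and 25.3 CPM at D11, again without overlap (log2 fold change -2.19 between D5 and D11, SE 0.14, edgeR adjusted p = 2.73e-07). The other 4 helicase subunits had log2 fold changes from -2.06 (Mcm2) to -1.45 (Mcm6). The loading factors Cdc6 and Cdt1 had -1.80 and -1.61, and Orc6, a subunit of the origin recognition complex, -0.99. Orc1, its large subunit, fell as well, but its D11 libraries at 0.483, 1.34 and 0.572 CPM were near the level of 3 counts, so its fold is not given.

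The 6 genes of helicase activation were less uniform, with 4 of 6 lower at D11 than at D5. Gins2, a GINS subunit (chromosome 8, 121305372 to 121316043, minus strand), was at 9.84, 12.9 and 14.4 CPM at D5 and 13.5, 12.4 and 16.4 CPM at D7, which overlapped, and at 3.62, 4.83 and 4.58 CPM at D11, below every earlier library. Its log2 fold change was 0.19 (SE 0.19, edgeR adjusted p = 0.539) from D5 to D7 and -1.70 (SE 0.22, edgeR adjusted p = 1.97e-04) from D7 to D11. Gins1, a second subunit, fell from 10.3, 12.3 and 13.8 CPM to 1.99, 2.41 and 3.43 CPM (-2.24, SE 0.25, edgeR adjusted p = 1.84e-05). Gins4, another, was at 17.7, 18.1 and 20.7 CPM at D5 and 13.3, 17.7 and 12.6 CPM at D11 (-0.37, SE 0.18, edgeR adjusted p = 0.124). Gins3, the remaining subunit, had -0.58 (SE 0.26, edgeR adjusted p = 0.0866). The groups of the first 2 subunits did not overlap between D7 and D11, and whether the 4 subunits differed from each other was not tested. Mcm10 and Cdc45, which also act on the loaded helicase, fell with -1.97 and -1.68.

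Of the 9 primase and polymerase genes, 8 fell between D5 and D11. Prim1, the catalytic subunit of primase, was at 29.9, 35.3 and 28.3 CPM at D5, 18.9, 13.2 and 21.2 CPM at D7 and 6.76, 8.04 and 8.30 CPM at D11. D11 lay 4.01-fold below D5 with no overlap (log2 fold change -2.00, SE 0.20, edgeR adjusted p = 6.88e-06). Pola1, the catalytic subunit of polymerase α, went from 36.4, 29.6 and 29.8 CPM to 11.8, 10.2 and 12.6 CPM (-1.45, SE 0.16, edgeR adjusted p = 1.39e-05). The 3 polymerase δ genes had the smallest differences of the 9. The catalytic subunit Pold1 had -0.47 (edgeR adjusted p = 0.0484), which missed the threshold with the culture as a replicate block (edgeR adjusted p = 0.0529). Pold3, an accessory subunit, was at 19.4, 17.7 and 20.5 CPM at D5 and 26.7, 17.2 and 16.3 CPM at D11, which overlap (0.08, SE 0.19, edgeR adjusted p = 0.778), and without TMM factors its difference was no longer positive. Pole, the catalytic subunit of polymerase ε, had -2.05 and its partner Pole2 -1.78.

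All 6 genes of the clamp and its loader fell between D5 and D11, with log2 fold changes from -1.69 to -0.40. Rfc5, a small loader subunit, was at 45.6, 33.4 and 37.7 CPM at D5, 21.1, 14.8 and 21.0 CPM at D7 and 11.1, 16.1 and 8.44 CPM at D11 (-1.69, SE 0.21, edgeR adjusted p = 5.62e-05). Pcna, the sliding clamp, was at 78.9, 68.1 and 71.2 CPM, 45.9, 47.9 and 50.4 CPM and 26.8, 26.0 and 30.5 CPM at the same days (-1.38, SE 0.11, edgeR adjusted p = 1.21e-06). The 3 days did not overlap for Pcna, while 1 D11 library of Rfc5 lay within its D7 range. Rfc1, the large loader subunit, had the smallest called change (-0.40, edgeR adjusted p = 0.00893), and Rfc3 had -0.49.

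All 5 genes of single-strand binding and Okazaki fragment joining fell too. Fen1, the nuclease that trims Okazaki fragments, was at 54.5, 50.8 and 52.3 CPM at D5, 32.8, 23.7 and 26.4 CPM at D7 and 9.89, 8.31 and 12.3 CPM at D11. The days did not overlap and D11 lay 5.13-fold below D5 (-2.36, SE 0.16, edgeR adjusted p = 4.15e-07). Lig1, the ligase that seals the fragments, went from 137, 129.7 and 129 CPM at D5 to 106, 78.8 and 84.3 CPM at D7 and 42.0, 40.6 and 48.4 CPM at D11 (-1.58, SE 0.12, edgeR adjusted p = 8.24e-07). The 3 subunits of the single-strand binding complex, Rpa1, Rpa2 and Rpa3, had -1.48, -1.33 and -1.18.

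Deoxynucleotide supply held the 2 genes with the largest falls of all 46. Rrm2, the regulated subunit of ribonucleotide reductase (chromosome 12, 24757811 to 24764145, plus strand), was at 67.1, 66.1 and 71.2 CPM at D5, 29.9, 30.0 and 28.9 CPM at D7 and 6.03, 6.17 and 4.58 CPM at D11. The 3 days were far apart and D11 lay 12.0-fold below D5 (log2 fold change -3.58, SE 0.13, edgeR adjusted p = 6.78e-09). Tk1, the cytosolic thymidine kinase (chromosome 11, 117702770 to 117717042, minus strand), was at 42.1, 44.1 and 40.7 CPM at D5, 30.7, 22.7 and 27.7 CPM at D7 and 3.38, 4.96 and 5.72 CPM at D11. Here too no library of a later day reached an earlier day, and the total change was 9.08-fold (-3.18, SE 0.19, edgeR adjusted p = 1.64e-07). Rrm1, the large subunit of the reductase, went from 145, 155 and 132 CPM at D5 to 89.7, 78.0 and 75.8 CPM at D7 and 66.1, 65.2 and 71.8 CPM at D11. It fell from D5 to D7 (-0.81, SE 0.10, edgeR adjusted p = 1.46e-04), and its change from D7 to D11 did not pass (-0.26, SE 0.10, edgeR adjusted p = 0.0771). Tyms, which makes thymidylate, fell by 4.28 times over the whole interval.

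The 3 genes of chromatin at the fork and the 3 of G1/S control also fell. Uhrf1, which recognizes newly copied DNA that is methylated on 1 strand (chromosome 17, 56610275 to 56630489, plus strand), was at 62.8, 55.2 and 43.3 CPM at D5, 49.1, 31.8 and 34.4 CPM at D7 and 9.78, 8.71 and 10.7 CPM at D11. D5 and D7 overlapped (-0.47, SE 0.17, edgeR adjusted p = 0.0730) and D11 stood clear of both (-1.99 against D7, SE 0.21, edgeR adjusted p = 3.54e-05). Chaf1a, the large subunit of the chromatin assembly factor CAF-1, went from 40.7, 51.8 and 51.3 CPM to 33.0, 26.9 and 33.6 CPM and 7.24, 10.7 and 6.87 CPM (-2.52 from D5 to D11, SE 0.18, edgeR adjusted p = 6.51e-07). Ccne2, a cyclin E, was at 28.6, 24.3 and 27.1 CPM at D5, 10.4, 10.5 and 12.4 CPM at D7 and 4.84, 3.22 and 4.03 CPM at D11, with no overlap (-2.71, SE 0.19, edgeR adjusted p = 4.56e-07). E2f1, a transcription factor of the G1/S program, had 0.08 (edgeR adjusted p = 0.816) from D5 to D7 and -1.09 (edgeR adjusted p = 0.00308) from D7 to D11.

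**Figure D3:**
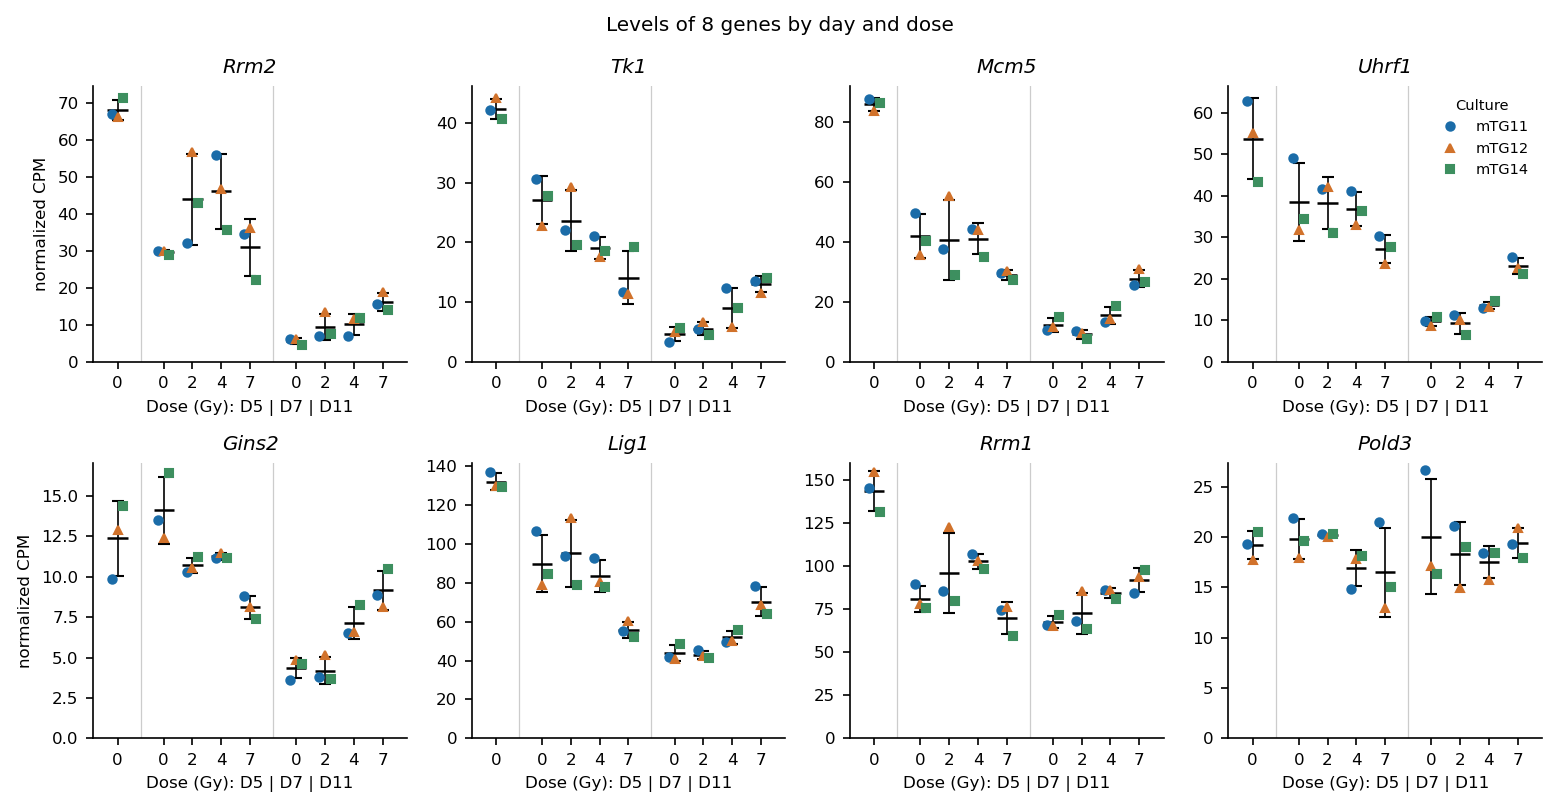
Normalized CPM of Rrm2, Tk1, Mcm5, Uhrf1, Gins2, Lig1, Rrm1 and Pold3 (y axes, from 0) in each library by dose within D5, D7 and D11 (x axes). Symbols are cultures, bars group means and whiskers the SD of 3 libraries. In the first 7 panels the 7 Gy libraries at D11 stand above the 0 Gy libraries of the same day. In the Pold3 panel the 0 Gy and 7 Gy libraries overlap on both days.

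The second comparison was that of each dose with 0 Gy, 2 days after irradiation. All doses of a day share the 0 Gy libraries of that day. At 2 Gy 0 of the 46 genes were called by edgeR (0.124% of all 19346 genes in either direction), with 3 at an unadjusted p under 0.05 and 0 called by DESeq2. At 4 Gy 0 were called by edgeR (1.63% of all genes), with 4 at an unadjusted p under 0.05 and 0 called by DESeq2. The median log2 fold changes were 0.09 and -0.05. At 7 Gy 6 of the 46 fell and 0 rose, with a median of -0.38 against 0.01 over all genes, and 3.75% of all genes were called lower. In 15 of the 46 every 7 Gy library lay below every 0 Gy library, against 12.8% of all genes tested. With dose as a number, 7 genes fell per Gy (4.72% of all genes), the same 6 and Mcm6.

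The 6 genes came from 5 of the 8 roles. Tk1 was at 30.7, 22.7 and 27.7 CPM without irradiation and 11.8, 11.3 and 19.2 CPM after 7 Gy, a 1.93-fold fall (log2 fold change -0.95, SE 0.21, edgeR adjusted p = 0.0144). The groups did not overlap, although the mTG14 library stood above the other 2 at 7 Gy. Gins2 went from 13.5, 12.4 and 16.4 CPM to 8.79, 8.13 and 7.40 CPM (-0.80, SE 0.16, edgeR adjusted p = 0.00799), again with no overlap. The polymerase subunits Pola1 and Pold1 fell as well. Pola1 was at 26.3, 20.7 and 25.6 CPM against 13.7, 13.5 and 16.7 CPM (-0.73, SE 0.14, edgeR adjusted p = 0.00603), and Pold1 at 14.3, 16.7 and 16.1 CPM against 9.30, 10.4 and 9.04 CPM (-0.71, SE 0.18, edgeR adjusted p = 0.0252). In both, each 7 Gy library was below all 0 Gy libraries. Lig1 was at 106, 78.8 and 84.3 CPM against 55.0, 60.2 and 52.0 CPM (-0.69, SE 0.14, edgeR adjusted p = 0.00963). Mcm4, a helicase subunit, was at 34.1, 37.4 and 30.7 CPM against 22.5, 28.2 and 21.2 CPM (-0.51, SE 0.14, edgeR adjusted p = 0.0412). These 2 genes did not overlap between the groups either.

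In the clamp, chromatin and G1/S groups no gene was called after 7 Gy at D7. Rfc4, a loader subunit, had the largest difference of the clamp group, from 12.7, 15.6 and 18.8 CPM to 6.46, 14.5 and 11.8 CPM (-0.53, SE 0.27, edgeR adjusted p = 0.278). Uhrf1, in the chromatin group, was at 49.1, 31.8 and 34.4 CPM against 30.2, 23.5 and 27.7 CPM (-0.51, SE 0.18, edgeR adjusted p = 0.105), without overlap. Ccne2, in the G1/S group, went from 10.4, 10.5 and 12.4 CPM to 7.00, 11.7 and 6.03 CPM, which overlap (-0.43, SE 0.26, edgeR adjusted p = 0.374). Other genes of the roles with a call also missed it. Mcm5 was at 49.7, 35.5 and 40.4 CPM without irradiation and 29.5, 30.2 and 27.1 CPM after 7 Gy, without overlap (-0.54, SE 0.20, edgeR adjusted p = 0.128), and Mcm3 at 70.2, 53.5 and 51.4 CPM against 48.3, 39.9 and 34.6 CPM (-0.52, SE 0.18, edgeR adjusted p = 0.105). Tyms was at 32.1, 24.5 and 16.9 CPM against 22.4, 18.7 and 16.4 CPM, which overlap (-0.36, SE 0.22, edgeR adjusted p = 0.378). The 4 genes with positive differences were Gins4, Prim2, Rrm2 and Ccne1, and Rrm2 was at 29.9, 30.0 and 28.9 CPM without irradiation and 34.5, 36.2 and 22.1 CPM after 7 Gy, which overlap. At the lower doses Rrm2 was at 32.1, 56.6 and 43.0 CPM after 2 Gy (0.59, SE 0.22, edgeR adjusted p = 0.480) and 56.0, 46.7 and 35.6 CPM after 4 Gy (0.63, SE 0.22, edgeR adjusted p = 0.181). Each of these libraries lay above all 0 Gy libraries, and neither dose passed the test. With the culture as a replicate block, which pairs the libraries of a culture, the count at 7 Gy was 11, the same 6 with Mcm3, Mcm5, Mcm6, Pold2 and Uhrf1, while the share of all genes called lower was 6.0% with the block. DESeq2 called 4 (Gins2, Pola1, Lig1 and Tk1) and 3.4% of all genes. In edgeR each of the 6 fits that left out 1 library called 3 or 4 genes. The edgeR count was 3 without the mTG14 library of 0 Gy or the mTG11 library of 7 Gy. The count of falls per Gy was 4 without the mTG11 or the mTG14 library of 7 Gy or without TMM factors.

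The third comparison was that of each dose with 0 Gy at D11, 6 days after irradiation, and here the direction was the opposite. At D11, 13 of the 46 genes rose after 7 Gy and 0 fell, with a median of 0.63 against 0.01 over all genes, and 1.06% of all 19901 genes were called higher. In 27 of the 46 every 7 Gy library lay above every 0 Gy library, against 12.7% of all genes tested. The 13 were Mcm2, Mcm3, Mcm5, Mcm6, Mcm7, Gins2, Fen1, Lig1, Rrm2, Tyms, Tk1, Uhrf1 and Chaf1a, thus 5 of 10 licensing genes, 1 of 6 in helicase activation, 0 of 9 primase and polymerase genes, 0 of 6 in the clamp group, 2 of 5 in the single-strand and joining group, 3 of 4 in nucleotide supply, 2 of 3 in chromatin and 0 of 3 in G1/S control. By DESeq2 13 were called as well (1.37% of all genes). At 2 Gy 0 of the 46 were called by edgeR (0.0% of all genes), with 3 at an unadjusted p under 0.05 and 0 by DESeq2. At 4 Gy 0 were called by edgeR (0.00502% of all genes), with 11 at an unadjusted p under 0.05 and 0 by DESeq2, and 39 of the 46 differences were positive with a median of 0.24. With dose as a number, 18 genes rose per Gy (1.73% of all genes), the 13 with Cdt1, Mcm4, Gins1, Pcna and Rrm1.

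Rrm2 rose most at D11. It was at 6.03, 6.17 and 4.58 CPM without irradiation and 15.7, 18.9 and 14.1 CPM after 7 Gy (2.82-fold, log2 fold change 1.50, SE 0.27, edgeR adjusted p = 0.0150). At the doses between it was at 7.11, 13.3 and 7.56 CPM after 2 Gy and 6.95, 11.5 and 11.8 CPM after 4 Gy and the 7 Gy libraries lay above all the others. Tk1 was at 3.38, 4.96 and 5.72 CPM at 0 Gy, 5.55, 6.60 and 4.43 CPM at 2 Gy, 12.3, 5.77 and 8.95 CPM at 4 Gy and 13.6, 11.5 and 14.1 CPM at 7 Gy, where 1 library of 4 Gy reached the range of 7 Gy. The difference of 7 from 0 Gy was 2.75-fold (1.46, SE 0.27, edgeR adjusted p = 0.0186). Tyms went from 10.4, 7.82 and 10.2 CPM to 18.8, 19.9 and 16.6 CPM (0.93, SE 0.18, edgeR adjusted p = 0.0231).

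Helicase and chromatin genes rose as well. Mcm5 was at 10.6, 11.5 and 14.9 CPM at 0 Gy, 10.2, 9.75 and 7.56 CPM at 2 Gy, 13.3, 14.3 and 18.7 CPM at 4 Gy and 25.7, 31.0 and 26.5 CPM at 7 Gy, where 2 Gy lay below 0 Gy without overlap, 4 Gy overlapped with 0 Gy and 7 Gy was clear of the others (2.20-fold, 1.14, SE 0.18, edgeR adjusted p = 0.00988). Mcm3 went from 19.1, 19.2 and 25.3 CPM to 45.6, 39.0 and 38.9 CPM (0.93, SE 0.16, edgeR adjusted p = 0.0142). Mcm2, Mcm6 and Mcm7 had log2 fold changes of 0.79, 0.73 and 0.70, and Mcm4, the sixth subunit, 0.87 without passing (edgeR adjusted p = 0.0728). Uhrf1 was at 9.78, 8.71 and 10.7 CPM at 0 Gy, 11.3, 10.0 and 6.52 CPM at 2 Gy, 13.1, 13.2 and 14.6 CPM at 4 Gy and 25.2, 22.7 and 21.3 CPM at 7 Gy. The groups of 0 and 2 Gy overlapped, 4 Gy lay above both and 7 Gy above 4 Gy, and 7 Gy lay 2.33-fold above 0 Gy (1.22, SE 0.18, edgeR adjusted p = 0.00853). Chaf1a went from 7.24, 10.7 and 6.87 CPM to 16.4, 19.8 and 18.2 CPM (1.10, SE 0.19, edgeR adjusted p = 0.0142).

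Lig1 and Fen1, which finish Okazaki fragments, rose together at D11. Lig1 was at 42.0, 40.6 and 48.4 CPM at 0 Gy and 78.5, 68.4 and 64.0 CPM at 7 Gy (0.65, SE 0.11, edgeR adjusted p = 0.0139), and Fen1 at 9.89, 8.31 and 12.3 CPM and 18.6, 21.6 and 19.3 CPM (0.93, SE 0.17, edgeR adjusted p = 0.0167). Gins2 was at 3.62, 4.83 and 4.58 CPM at 0 Gy, 3.78, 5.16 and 3.65 CPM at 2 Gy, 6.53, 6.56 and 8.26 CPM at 4 Gy and 8.86, 8.12 and 10.5 CPM at 7 Gy (1.03 for 7 Gy, SE 0.22, edgeR adjusted p = 0.0330). In these 3 genes 7 Gy did not overlap with 0 Gy, while in Gins2 0 Gy overlapped with 2 Gy, and 4 Gy with 7 Gy. Outside the called genes, Pola1 was at 11.8, 10.2 and 12.6 CPM against 19.7, 16.8 and 15.2 CPM (0.55, SE 0.22, edgeR adjusted p = 0.262). Rfc5 was at 11.1, 16.1 and 8.44 CPM against 19.2, 19.5 and 17.9 CPM (0.63, SE 0.20, edgeR adjusted p = 0.152), and Pcna at 26.8, 26.0 and 30.5 CPM against 36.7, 38.3 and 39.2 CPM (0.42, SE 0.11, edgeR adjusted p = 0.0865). Neither overlapped. The smallest responses, under 0.1 in size, were those of Gins4, at 13.3, 17.7 and 12.6 CPM against 13.7, 13.7 and 16.3 CPM (-0.04, SE 0.19), and of Rfc1, Orc6, Pold3 and Pold1 (0.02, 0.04, -0.08 and -0.09). Ccne1, Ccne2 and E2f1, the 3 genes of G1/S control, had 0.52, 0.60 and 0.52, and none passed.

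The number of genes called at D11 depended on single libraries. It was 3 without the mTG11 or the mTG12 library of 0 Gy, 6 without the mTG14 library of 0 Gy, 8 without the mTG11 library and 7 without the mTG12 library of 7 Gy, while it was 20 with the replicate block, the same 13 with Cdt1, Gins1, Mcm4, Pcna, Prim1, Rfc5 and Rrm1. With the block the share of all genes called higher was 3.6%, against 1.06% without it, so the count over all genes grew by a larger factor than that of the members. Mcm5 and Uhrf1 passed in each of the 6 fits that left out 1 of the compared libraries. In those 6 fits the median log2 fold change of the 46 genes was 0.60 to 0.67, beside 0.63 with all libraries. The share of all genes called in those fits is not given here. Their counts therefore do not compare the members with other genes.

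**Figure D4:**
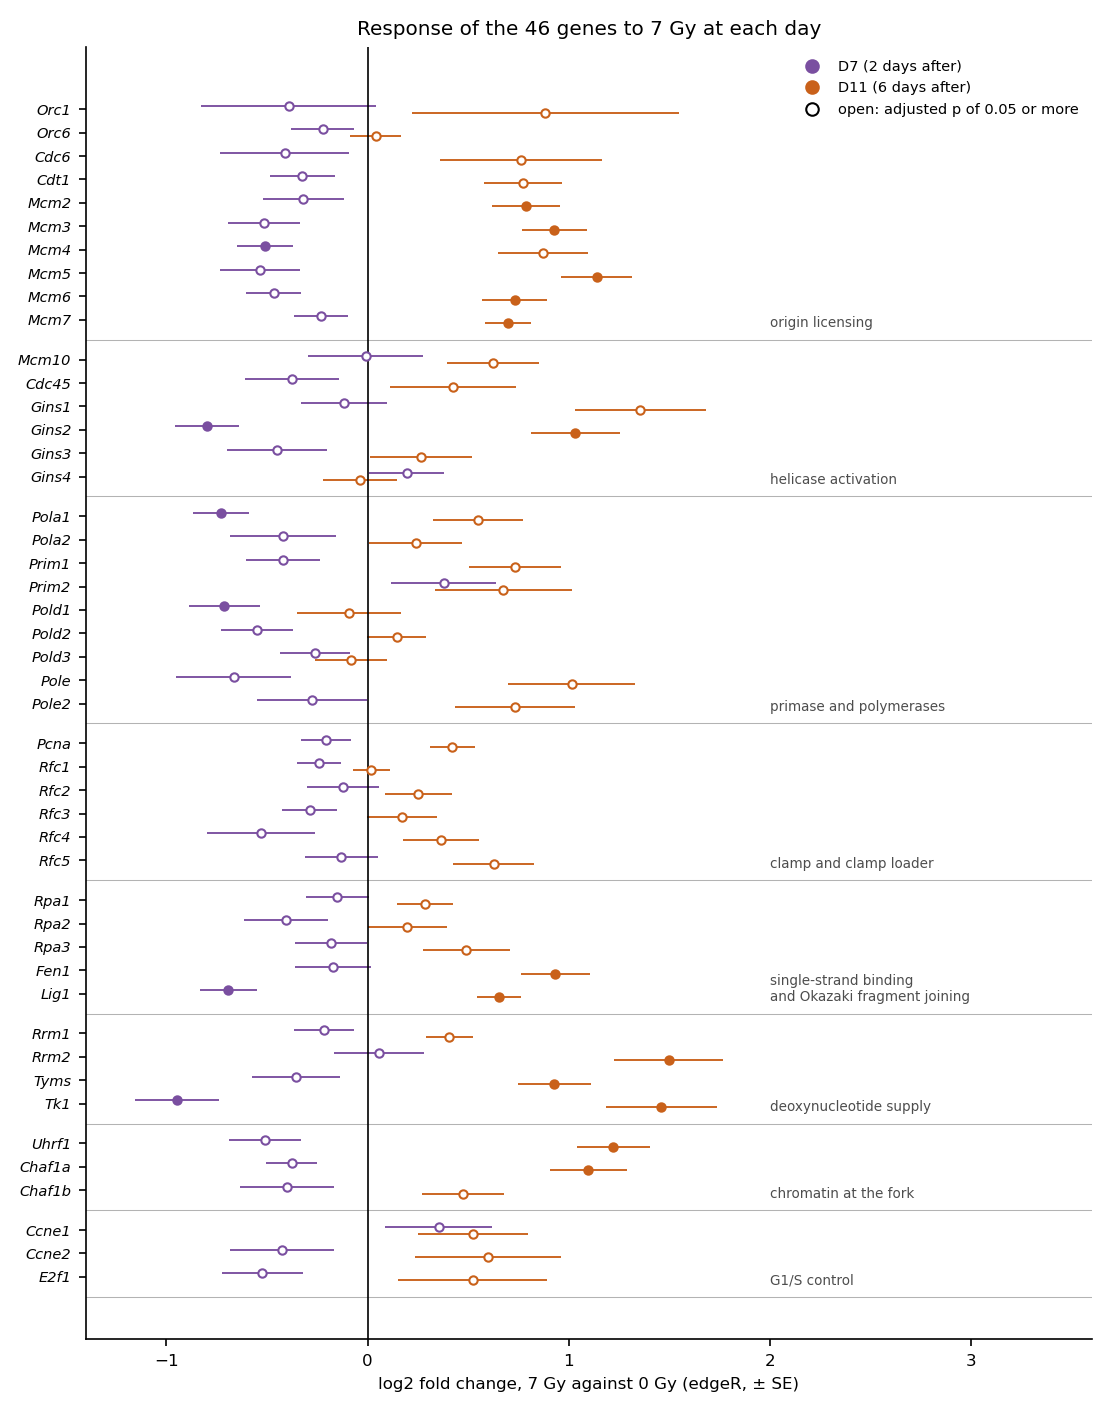
Log2 fold change of 7 Gy against 0 Gy (x axis, edgeR, whiskers 1 SE) for each of the 46 genes (y axis, by role), at D7 in violet and D11 in orange. Filled points had an adjusted p under 0.05. Filled violet points (6 genes) lie left of 0 and filled orange points (13 genes) lie right of it, and Gins4, Orc6, Pold1, Pold3 and Rfc1 are near 0 at D11.

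Whether the response to 7 Gy itself differed between D7 and D11 was tested in 1 fit of the 24 libraries of both days. It was higher at D11 in 20 of the 46 genes and lower in 0, with a median difference of 1.00 on the log2 scale, and 2.22% of all 21928 genes were called higher. At 2 Gy 0 of the 46 were called by edgeR (0.0% of all genes were called higher), with 2 at an unadjusted p under 0.05 and 0 by DESeq2. At 4 Gy 0 were called by edgeR (0.0547% of all genes called higher), with 5 at an unadjusted p under 0.05 and 0 by DESeq2. The 20 genes included all 13 that rose at D11 and 5 of the 6 that fell at D7, all but Pold1, comparisons that use the same libraries. Tk1 differed most, by 2.44 (SE 0.35, edgeR adjusted p = 1.87e-04), that is a fall of 1.93-fold at D7 and a rise of 2.75-fold at D11. Gins2 differed by 1.86 (SE 0.25, edgeR adjusted p = 7.59e-05) and Uhrf1 by 1.76 (SE 0.26, edgeR adjusted p = 2.10e-04). Among the polymerase genes Pola1 differed by 1.31 (SE 0.26, edgeR adjusted p = 0.00385) and Pole by 1.72 (SE 0.43, edgeR adjusted p = 0.0276). Without the mTG11 library of 0 Gy at D11 the count was 13.

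The same data can be read as the change from D7 to D11 within each dose. At 2 Gy 37 of the 46 genes fell (9.69% of all genes) with a median of -1.16, and at 4 Gy 30 fell (9.44% of all genes) with a median of -0.73. At 7 Gy 1 gene fell (6.15% of all genes), Rrm2, and the median was -0.05. Rrm2 went from 34.5, 36.2 and 22.1 CPM at D7 to 15.7, 18.9 and 14.1 CPM at D11 at 7 Gy (-0.92, SE 0.23, edgeR adjusted p = 0.00998), against -2.40 without irradiation. Mcm5 was at 29.5, 30.2 and 27.1 CPM at D7 and 25.7, 31.0 and 26.5 CPM at D11 after 7 Gy, which overlap (-0.06, SE 0.19, edgeR adjusted p = 0.899). Tk1 was at 11.8, 11.3 and 19.2 CPM and 13.6, 11.5 and 14.1 CPM (-0.11, SE 0.23, edgeR adjusted p = 0.827), overlapping too. With the replicate block 3 genes were called at 7 Gy (17.2% of all genes in either direction), Rrm2 and Chaf1a lower and Rrm1 higher. The call of Rrm2 was lost in 4 of the 6 fits that left out 1 library. These were the fits without the mTG11 or the mTG12 library of 7 Gy at D7 or the mTG11 library of 7 Gy at D11, which left 0 calls, and the fit without the mTG14 library of 7 Gy at D11, where Gins3 was called higher instead (0.82, SE 0.24, edgeR adjusted p = 0.0311).

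**Figure D5:**
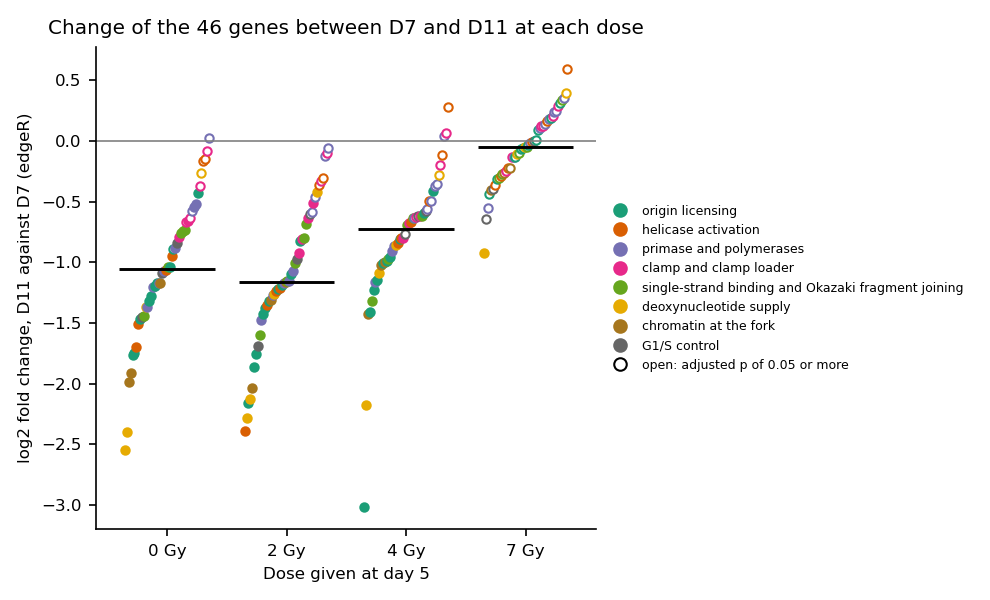
Log2 fold change from D7 to D11 (y axis, edgeR) of each of the 46 genes at each dose (x axis), ordered by value within a dose and colored by role. The black bar is the median and filled points had an adjusted p under 0.05; the 0 Gy values come from the fit of the 9 non-irradiated libraries and the others from the fit of 24. Medians are -1.05, -1.16, -0.73 and -0.05 from 0 to 7 Gy.

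Other genes of the process were counted for comparison. Of 50 further replication and G1/S genes, 39 fell between D5 and D11 (20.1% of all genes) and Pold4 and Rb1 rose. The median was -1.08. Ccna2, cyclin A, went from 67.2, 75.1 and 68.0 CPM at D5 to 7.48, 5.63 and 10.3 CPM at D11 (log2 fold change -3.16, SE 0.17, edgeR adjusted p = 1.00e-07). Asf1b, a histone chaperone, had -3.22 (SE 0.26, edgeR adjusted p = 1.70e-06) and the repressor E2f8 -3.07 (SE 0.38, edgeR adjusted p = 4.35e-05). After 7 Gy 3 of the 50 fell at D7, near the share of all genes (3.75%). At D11 5 rose (1.06% of all genes), and 8 had a higher response at D11 than at D7 (2.22% of all genes). Ccna2 was at 19.1, 22.1 and 20.8 CPM after 7 Gy at D7, below 40.8, 32.3 and 36.3 CPM at 0 Gy, and at 17.5, 17.0 and 20.4 CPM after 7 Gy at D11, above 7.48, 5.63 and 10.3 CPM at 0 Gy. Gmnn, the inhibitor of Cdt1, had -0.74 (SE 0.14, edgeR adjusted p = 0.00598) at D7, and Hells, a chromatin remodeler, 0.89 (SE 0.22, edgeR adjusted p = 0.0626) at D11. Clspn, a checkpoint mediator at the fork, had a response higher by 2.16 at D11 than at D7 (SE 0.36, edgeR adjusted p = 9.34e-04). Dnmt1, the maintenance DNA methyltransferase that Uhrf1 recruits, had -0.72 (SE 0.16, edgeR adjusted p = 0.0126) at D7 and 0.75 (SE 0.13, edgeR adjusted p = 0.0142) at D11.

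Of 25 genes of mitosis and G2/M, 25 fell between D5 and D11 (20.1% of all genes). After 7 Gy 16 of the 25 fell at D7 (3.75% of all genes) and 18 rose at D11 (1.06%). The response was higher at D11 than at D7 in 25 (2.22% of all genes). The median log2 fold changes of the 25 were -0.76 at D7 and 1.16 at D11 after 7 Gy, beside -0.38 and 0.63 for the 46 replication genes. Whether the 2 lists differed was not tested. Their summed level was 1674 to 1952 CPM at D5, 240 to 291 CPM at D11 and 606 to 650.2 CPM at D11 after 7 Gy.

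Markers of other cells moved over the same days. The 10 fibroblast markers summed to 240 to 387 CPM at D5, 162 to 257 CPM at D11 and 262 to 355 CPM at D11 after 7 Gy, with Pdgfra, Pdgfrb and Thy1 at means of about 1 CPM (0.983, 0.903 and 1.02). Sparc was the most abundant of the 10, with a mean of 231 CPM. Of the 10, 6 fell between D5 and D11 (20.1% of all genes). At D11 their median log2 fold change was 1.634 after 2 Gy, 1.605 after 4 Gy and 0.998 after 7 Gy, with 0 called at each dose. The 10 thyroid markers summed to 50.5 to 62.4 CPM at D5, 201 to 289 CPM at D11 and 133 to 209 CPM at D11 after 7 Gy. Duoxa2, Foxe1 and Duox2 were the most abundant of the 10 (means of 60.7, 29.8 and 27.9 CPM over the 27 libraries). Only 6 of the 10 had enough counts to be tested between D5 and D11. Their log2 fold changes ran from -1.703 to 8.673. The 7 epithelial markers summed to 11870 to 13540 CPM at D5 and 5555 to 6853 CPM at D11. This sum rests largely on Krt5 and Krt14 (means of 4018 and 3335 CPM). The 7 markers had log2 fold changes from -2.315 to 2.296 between D5 and D11, with a median of 1.31. The 7 immune markers summed to 5.58 to 14.6 CPM at D5 and 38.6 to 67.3 CPM at D11, mostly Cd68, with Cd3e at 0 and Ptprc at a mean of 0.108 CPM, and the 5 endothelial markers to at most 1.55 CPM in any library, with Emcn at 0. The part of these cells in the changes of the 46 genes was not tested.

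In the GENCODE annotation of GRCm39, 26 of the 46 genes overlap a gene on the opposite strand and 11 one on the same strand, and whether the counting used strand is not given in the sources used here. Of the 13 genes that rose after 7 Gy at D11, Rrm2 overlaps Gm59512, Tk1 overlaps Afmid, Syngr2 and Gm20708, Gins2 overlaps Gse1, Fen1 overlaps Tmem258 and Gm10143, Lig1 overlaps Zswim9, Chaf1a overlaps Ubxn6 and Gm65040, and Mcm7 overlaps Ap4m1, Cops6 and the microRNA genes Mir106b, Mir93 and Mir25. Mcm2, Mcm3, Mcm5, Mcm6, Tyms and Uhrf1 overlap none. For 7 of the 46 genes fractional values outnumbered whole ones over the libraries (Pola2, Tyms, Rpa3, Pcna, Gins1, Mcm7 and Ccne2). In the others the share of fractional values went up to 48.1% (Uhrf1). It was 44.4% in Rrm2, 40.7% in Mcm3, Mcm5 and Tk1, and 0.0% in others such as Mcm2 and Gins2. How fractions arose is not given in the sources used here, and the counts of genes with fractional values are uncertain to that degree.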

How the data were processed

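RNA of 27 organoid samples was sequenced by Smart3SEQ, a 3′ RNA-seq method. Expected counts per gene were deposited by the authors in 1 table, with 56.3% of nonzero values whole. The submitters' processing notes name STAR, edgeR and GRCm39, while the annotation, the counting tool, whether it used strand and how molecular identifiers were treated are not given in the sources used here. Counts were rounded and genes with at least 10 summed counts per fit were tested with edgeR 4.0.16 (R 4.3.3; TMM, quasi-likelihood, Benjamini-Hochberg over all genes, threshold 0.05). The 9 non-irradiated libraries entered 1 fit, the 12 libraries of each day another, also with dose as a number, and the 24 libraries of D7 and D11 another, with the interaction of day and dose. Log2 levels used a pseudocount of 1 CPM. Fitted fold changes carry edgeR's prior count, and standard errors were taken from the fold change and the F statistic. The limit of 3 counts covers counting error only, while SDs and standard errors include the spread between libraries.

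Groups came from the labels. Libraries of 1 culture identifier deviated together, so the culture was used as a replicate block in an alternative fit. Every same-culture correlation was over 0.1, the lowest 0.113, in all 4 sets of groups. The means between cultures, -0.106 to -0.173, follow from taking deviations from a mean of 3 libraries and are not a separate result. No replicate pair agreed within sampling noise (smallest chi-square per degree of freedom 3.39 over 27 pairs). No label links these identifiers to mouse 1, 2 or 3, so p-values measure the spread between these cultures. Alternatives were DESeq2 1.42.0, no TMM factors, other filters, the compared groups alone, the block and leaving out each library. Library values are given for the 1 or 2 members of each role with the largest absolute fold change in a main comparison, at a mean of at least 10 CPM in the fit, and, chosen after their values were seen, for Gins1, Gins2, Mcm4, Orc1, Pold3, Rrm1, Rrm2 and Tk1 where this rule did not name them. The members and lists were chosen with earlier results of these data known. Promoter windows came from RefSeq (GRCm38.p6), gene positions from GENCODE vM39 (GRCm39), and the 2 builds were not mixed. Figures were drawn with matplotlib 3.10.9. The level of 1 marker gene is not reported here. The scripts were tested on simulated data.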

Additional observations from a re-analysis of the deposited data

Results flagged for a closer look

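The difference between the responses to 7 Gy at D11 and at D7 was tested as an interaction in edgeR, and this test singled out 20 of the 46 genes. On the log2 scale the response was higher at D11 by 1.13 in Cdt1, 1.14 in Mcm2, 1.48 in Mcm3, 1.41 in Mcm4, 1.71 in Mcm5, 1.23 in Mcm6 and 0.96 in Mcm7, the licensing genes. It was higher by 1.50 in Gins1 and 1.86 in Gins2, by 1.31 in Pola1, 1.19 in Prim1 and 1.72 in Pole, and by 0.66 in Pcna. Among the genes of fragment joining and nucleotide supply the differences were 1.14 in Fen1, 1.38 in Lig1, 1.47 in Rrm2, 1.32 in Tyms and 2.44 in Tk1. The chromatin genes Uhrf1 and Chaf1a had 1.76 and 1.50. Groups of 3 libraries were not tested for a library far from the others.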

How the results depend on the processing

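With the culture as a replicate block, 11 of the 46 genes were called after 7 Gy at D7 (6 without the block), 20 after 7 Gy at D11 (13) and 3 from D7 to D11 at 7 Gy (1), and in the other comparisons the block added at most 4 calls and ended 1, that of Pold1 from D5 to D11. With no filter on low counts the counts were 1 for 2 Gy at D7, 1 for 4 Gy at D7, 11 for 7 Gy at D7, 1 for 4 Gy at D11, 20 for 7 Gy at D11, 2 from D7 to D11 at 7 Gy and 1 for the difference of the 4 Gy responses. From D7 to D11 at 7 Gy 2 were also called with edgeR's own filter and 2 with the compared groups alone. Without TMM factors 4 genes fell per Gy at D7. The cause of these changes was not tested. With a pseudocount of 0.5 CPM the median log2 level at D11 was 3.70 after 4 Gy (3.76 with 1 CPM) and 4.02 after 7 Gy (4.07).

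Leaving out 1 library gave 20 to 26 genes from D5 to D7, 28 to 33 from D7 to D11, 41 to 43 from D5 to D11, 3 to 4 after 7 Gy at D7, 3 to 9 after 7 Gy at D11, 0 to 1 from D7 to D11 at 7 Gy, 30 to 37 at 2 Gy and 21 to 26 at 4 Gy, 13 to 20 for the difference of the 7 Gy responses, 0 to 1 for that of the 4 Gy responses, 4 to 7 for falls per Gy at D7 and 14 to 19 for rises per Gy at D11. The shares of all genes called in the fits that left out 1 library are not given here. No called gene reversed its direction under any alternative run. Counted over called genes, comparisons and alternatives, a call was kept 1346 times and lost 63 times under the other alternatives, and kept 1419 times and lost 285 times when 1 library was left out. Depth limits Orc1, which was near 3 counts at D11, and with 3 libraries a group small differences were not detectable.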

Other observations

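Against the direction of the 50 further replication and G1/S genes, Pold4 and Rb1 rose between D5 and D11. They are named after their values were seen. Pold4, the smallest subunit of polymerase δ, had a log2 fold change of 1.34 (SE 0.15, edgeR adjusted p = 1.58e-05). Rb1, the pocket protein that restrains E2F factors, had 0.63 (SE 0.20, edgeR adjusted p = 0.0259).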
